A study of Homo sapiens with 12 samples.

Results

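The transcripts of 9 regulators of lung and endoderm identity were followed by symbol in RNA sequencing counts of a pair of human lung cell lines. They are NKX2-1, FOXA1, FOXA2, GATA6, SOX2, SOX9, HNF4A, CEBPA and EYA1, taken from the 26485 gene symbols listed for every library. A549 comes from a lung adenocarcinoma, and BEAS-2B, shortened to B2B by the study, from bronchial epithelium that was immortalised. Both lines carry the genotype label WT, and each is 1 established line standing for its cell type. Cells of each line received 10 µM SR11302, used against the transcription factor AP-1, or 50 µM SP600125, used against the JNK kinases that activate it, for 72 h, or were left untreated (NT). The groups are A549_SR11302, A549_SP600125, A549_NT, B2B_SR11302, B2B_SP600125 and B2B_NT, with 2 libraries each and 12 in all. The inhibitors were dissolved in DMSO. The labels call the NT cells non-treated and name no solvent, while the study's text names DMSO for controls of these RNA measurements, so whether NT cells received the solvent is not settled.

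These factors act together in development. FOXA1 and FOXA2 are forkhead proteins that open chromatin in endoderm and its derivatives, and GATA6 is a zinc finger factor that works beside them. NKX2-1 then marks the lung and thyroid fields and drives the surfactant genes of alveolar cells, while HNF4A, a nuclear receptor, drives the genes of liver and gut. CEBPA is a leucine zipper factor of hepatocytes, fat cells and maturing alveolar cells. SOX2 marks the proximal airway and SOX9 the distal buds of the growing lung, and EYA1 is a coactivator and phosphatase that pairs with homeodomain partners and is needed for branching in the mouse lung. In mouse models of lung adenocarcinoma, loss of Nkx2-1 is followed by gain of Hnf4a and of gut-like genes.

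Promoter sequence from RefSeq (GRCh38.p14) was used for 6 of the 9 factors, and not for EYA1, FOXA2 or SOX9. It came in 8 windows, of which the 250 bases before the transcription start are considered here. SR11302 is used against AP-1, so each window was searched on both strands for TGAGTCA, the core letters of an AP-1 site. Only the downstream start of HNF4A held them, in capitals below, beginning 225 bases before the start. Of all 35116 promoter windows, 4.20% held these letters, so 1 window among 8 is a description and not a site. The other letters searched in the same way were those of a CRE (TGACGTCA, held by 1.65% of all windows) and of an HNF4 site (CAAAGTCCA, held by 0.325%), which none of the 8 windows held. A forkhead core, TGTTTAC, is held by 2.98% of all windows, and among the 8 by 1 window of NKX2-1. A core of GATA sites, AGATAA, is held by 9.17% of all windows, and among the 8 by that window of NKX2-1 and by the upstream one of HNF4A. The last was a core of SOX sites, ACAATG, which 9.29% of all windows and none of the 8 held. No matches overlapped. The windows shown are those of HNF4A, which fell under SR11302 in A549, and of CEBPA, which rose under SP600125 in B2B.
HNF4A, downstream start, chr20:44400989-44401238, plus strand: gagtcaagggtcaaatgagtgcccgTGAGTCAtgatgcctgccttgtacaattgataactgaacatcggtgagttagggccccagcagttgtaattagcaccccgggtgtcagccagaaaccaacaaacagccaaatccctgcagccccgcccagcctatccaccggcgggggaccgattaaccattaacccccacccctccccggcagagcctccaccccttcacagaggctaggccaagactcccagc
HNF4A, upstream start, chr20:44355449-44355698, plus strand: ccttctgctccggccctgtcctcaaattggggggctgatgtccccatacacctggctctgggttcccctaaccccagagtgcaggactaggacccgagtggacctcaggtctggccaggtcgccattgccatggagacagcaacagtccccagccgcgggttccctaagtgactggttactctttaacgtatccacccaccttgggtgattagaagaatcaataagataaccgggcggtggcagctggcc
CEBPA, chr19:33302535-33302784, minus strand: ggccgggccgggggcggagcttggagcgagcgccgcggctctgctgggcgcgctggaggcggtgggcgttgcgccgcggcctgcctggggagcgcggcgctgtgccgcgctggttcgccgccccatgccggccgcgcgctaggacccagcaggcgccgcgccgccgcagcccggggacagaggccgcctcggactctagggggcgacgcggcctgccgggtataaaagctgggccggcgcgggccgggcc
The HNF4A windows were 58.0% G or C at the downstream start and 58.4% at the upstream one, and that of CEBPA was 81.2%. Counts are per gene, so they do not say which HNF4A start was used.

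Between 13969766 and 24917854 reads per library were assigned to genes. Reads in no annotated gene made up 14.6 to 20.1% of all tallied reads in the 8 treated libraries and 23.8 to 25.9% in the 4 untreated ones, so treatment and this share cannot be told apart. Genes of one line had low counts in some libraries of the other. The 21 genes with at least 20 CPM in A549_NT and no count in treated B2B summed in B2B_NT replicate 2 to 0.584% of their A549_NT level, and in replicate 1 to 0.0486%. The 6 genes with at least 20 CPM in B2B_NT and no count in treated A549 summed in A549_NT replicate 2 to 0.332% of their B2B_NT level, and in replicate 1 to 0.0133%. Of 7 epithelial markers, 7 reached 1 CPM in A549_NT (14120 to 16260 CPM summed) and 6 in B2B_NT (1683 to 1869 CPM summed, CLDN4 lower). Of 8 mesenchymal markers, 6 reached 1 CPM in A549_NT (45.7 to 72.4 CPM summed) and all 8 in B2B_NT (7192 to 7345 CPM summed). Of 6 basal airway markers, 1 reached 1 CPM in B2B_NT, KRT17, while the defining TP63, KRT5, KRT14, NGFR and DSG3 lay under it. Immune markers summed to at most 4.19 CPM in any library. Endothelial markers reached 16.8 to 17.8 CPM in A549_SP600125, against 0.278 to 0.319 CPM in A549_NT. Epithelial markers summed in A549_SP600125 to 6758 to 6823 CPM, and 5 neuroendocrine ones to 20.5 to 23.3 CPM (9.34 to 9.40 CPM in A549_NT). Markers also moved in B2B_SP600125, where endothelial ones summed to 9.15 to 13.2 CPM (1.51 to 1.53 CPM in B2B_NT), mesenchymal ones to 1712 to 1842 CPM, basal ones to 43.6 to 62.2 CPM (389 to 419 CPM in B2B_NT) and epithelial ones to 713 to 868 CPM. The part of these markers in the results was not tested.

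Without treatment the lines held different sets of lineage factors. In such bulk RNA, fewer cells with a transcript and less transcript per cell cannot be told apart. Levels are given in CPM, counts put on a common scale of library totals after TMM normalization. FOXA2 stood at 58.7 and 58.0 CPM in A549_NT, against 0 and 0.529 CPM in B2B_NT. HNF4A stood at 130 and 120 CPM in A549_NT, against 0 and 0.651 CPM in B2B_NT. The few B2B_NT counts of both (13 of FOXA2 and 16 of HNF4A) lay in replicate 2, at 0.907% and 0.521% of their A549_NT levels. Folds over B2B_NT are therefore uncertain for both. FOXA2 was called higher in A549_NT with a log2 fold change of 7.65 ± 0.38 (SE, edgeR quasi-likelihood test, Benjamini-Hochberg adjusted p = 3.29e-09), and with 6.76 to 13.10 when single libraries were left out. HNF4A was called higher with 8.45 ± 0.41 (adjusted p = 8.11e-10 by the same test), and with 7.56 to 14.20 when single libraries were left out. Against treated B2B, which had no count of FOXA2, the level was at least 783-fold higher in A549_SR11302 than in B2B_SR11302 and at least 725-fold higher in A549_SP600125 than in B2B_SP600125. These bounds set B2B to 3 counts over its 2 libraries and cover only the counting error of B2B.

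CEBPA was the third factor far higher in A549. It stood at 18.0 and 14.2 CPM in A549_NT, against 0.192 and 0.570 CPM in B2B_NT, and the libraries did not overlap. The log2 fold change was 5.33 ± 0.34 (edgeR, adjusted p = 6.71e-09), and 4.80 to 6.34 when single libraries were left out, with 4 and 14 counts in B2B_NT. SOX2 was scarce in both lines, with 6 and 10 counts in A549_NT against none in B2B_NT, and did not pass the filter on low counts. It was at least 6.55-fold higher in A549_NT, counting error only.

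EYA1 and NKX2-1 lay the other way. EYA1 had no count in any of the 6 A549 libraries, which allows at most 0.0815 CPM in A549_NT, and stood at 15.4 and 13.9 CPM in B2B_NT. The level was at least 180-fold lower in A549_NT. NKX2-1 stood at 0 and 0.0531 CPM in A549_NT, the second value being 1 read, against 2.44 and 2.85 CPM in B2B_NT. That gave a log2 fold change of -6.31 ± 0.67 (edgeR, adjusted p = 1.44e-06), and -8.69 to -5.48 when single libraries were left out. The adenocarcinoma line thus all but lacked NKX2-1 as well as EYA1, with 11 counts of NKX2-1 over its 6 libraries against 362 over the 6 of B2B. The exons of NKX2-1 share 32.6% of their bases with SFTA3 on the same strand. HTSeq leaves out reads that it cannot assign to 1 gene. SFTA3 itself had at most 5 counts in any library.

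FOXA1, GATA6 and SOX9 were present in both lines. FOXA1 stood at 15.8 and 15.7 CPM in A549_NT, against 24.4 and 24.4 CPM in B2B_NT, a log2 fold change of -0.63 ± 0.19 (edgeR, adjusted p = 0.00928). GATA6 stood at 10.9 and 9.66 CPM in A549_NT, against 6.80 and 6.84 CPM in B2B_NT. It was called higher in A549 at 0.59 ± 0.20 (edgeR, adjusted p = 0.0194), a call lost without A549_NT replicate 1 (0.50, adjusted p = 0.115), without either B2B_NT library, when scaled by library size only (0.47) and with an offset for the GC content of genes (0.40, adjusted p = 0.0715). SOX9 stood at 69.8 and 73.9 CPM in A549_NT, against 60.4 and 60.2 CPM in B2B_NT. It did not pass the test, with a 95% interval of -0.11 to 0.62 on the log2 scale. In all, 4 of the 8 factors tested were called higher in A549_NT and 3 lower, where a call needs an adjusted p under 0.05 and a log2 change of at least 0.5, and 56.9% of all 16373 genes tested were called.

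Per kilobase of exon, the order of the levels differed between the lines. In A549_NT it ran FOXA2, SOX9, HNF4A, CEBPA, FOXA1, GATA6, SOX2, NKX2-1 and EYA1. FOXA2 led at 21.5 CPM per kb, followed by SOX9 at 18.3 and HNF4A at 12.3, and among neighbours only the libraries of NKX2-1 and EYA1 overlapped. In B2B_NT it ran SOX9 (15.3 CPM per kb), FOXA1 (5.53), GATA6 (1.80), EYA1 (1.57) and NKX2-1 (0.836), with CEBPA, FOXA2, HNF4A and SOX2 near 0 and overlapping. Lengths are the union of all exons, and with the longest transcript in their place HNF4A stood first in A549_NT (26.4 CPM per kb) and EYA1 passed GATA6 in B2B_NT (3.44 against 1.88). The inhibitors moved the top of the order in B2B, where FOXA1 stood above SOX9 in B2B_SR11302 (6.72 and 3.61 CPM per kb) and in B2B_SP600125 (11.3 and 3.83).

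**Figure D1:**
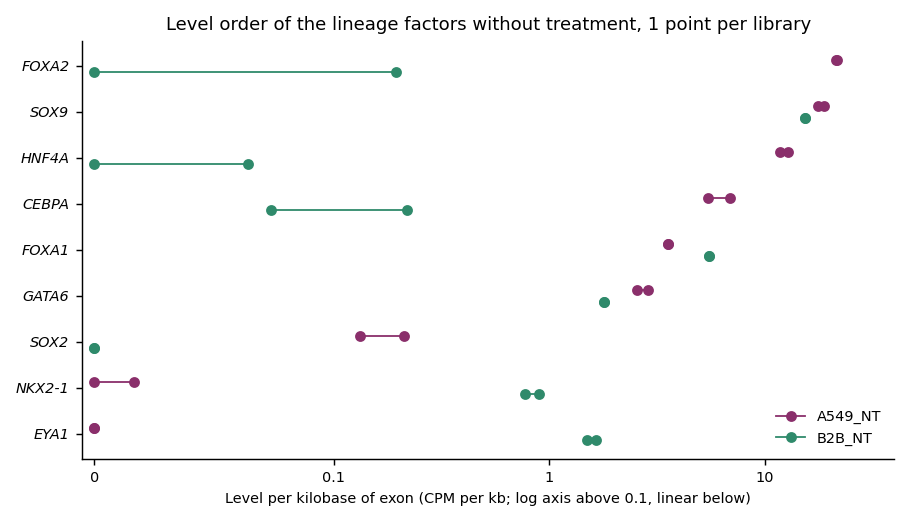
Levels of the 9 lineage factors (rows, ordered by A549_NT) in CPM per kilobase of exon, on a log axis above 0.1 and a linear one below, with 1 point per untreated library and a line joining the 2 libraries of a group. FOXA2, HNF4A and CEBPA lie far to the right in A549_NT, EYA1 and NKX2-1 in B2B_NT, and SOX9, FOXA1 and GATA6 lie close together.

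SOX9 fell in both lines under SR11302, and further in B2B. It stood at 32.9 and 52.6 CPM in A549_SR11302, against 69.8 and 73.9 CPM in A549_NT. In B2B it stood at 15.5 and 12.9 CPM in B2B_SR11302, against 60.4 and 60.2 CPM in B2B_NT. The treated libraries lay below the untreated ones in both lines, but those of A549_SR11302 lay far apart. The log2 fold change was -0.75 ± 0.17 in A549 (edgeR, adjusted p = 0.00445) and -2.08 ± 0.18 in B2B (adjusted p = 4.39e-06). Without A549_SR11302 replicate 1 the A549 value was -0.45, under the fold minimum, and without replicate 2 it was -1.10. The difference between the lines, A549 minus B2B, was 1.33 ± 0.25 (edgeR interaction, adjusted p = 0.00259). Fitted on only the groups compared, these calls held with adjusted p = 0.0402 in A549 and 0.0137 for the difference (edgeR).

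HNF4A fell in A549 under SR11302, to 52.1 and 58.0 CPM in A549_SR11302, against 130 and 120 CPM in A549_NT. The log2 fold change was -1.18 ± 0.24 (edgeR, adjusted p = 0.00223), and -1.24 to -1.10 when single libraries were left out. DESeq2 over all 12 libraries gave the same size (-1.18) without a call (adjusted p = 0.600), whereas DESeq2 on the 4 libraries compared called it (-1.19, adjusted p = 2.36e-08). HNF4A-AS1, an antisense transcript that shares no exon base with HNF4A, had 1 and 3 counts in A549_SR11302, against 13 and 11 in A549_NT. The letters of the AP-1 site in the downstream HNF4A window above say nothing about which factor bound there.

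The other factors did not pass the test under SR11302 in A549. FOXA1 stood at 10.5 and 17.3 CPM in A549_SR11302, on both sides of the 15.8 and 15.7 CPM of A549_NT, and was called lower at -0.56 without A549_SR11302 replicate 2 (adjusted p = 0.0197, edgeR). FOXA2 stood at 59.8 and 51.9 CPM in A549_SR11302, against 58.7 and 58.0 CPM in A549_NT, with a 95% interval of -0.54 to 0.41 on the log2 scale. GATA6 stood at 8.16 and 8.49 CPM in A549_SR11302, against 10.9 and 9.66 CPM in A549_NT (-0.74 to 0.13). Each of these intervals still reaches past the fold minimum of 0.5. CEBPA stood at 13.6 and 14.5 CPM in A549_SR11302, against 18.0 and 14.2 CPM in A549_NT (-0.67 to 0.28). NKX2-1 had 3 and 5 counts in A549_SR11302, against 0 and 1 in A549_NT, and SOX2 had 5 and 11, against 6 and 10. Thus 2 of 8 factors were called lower and none higher, where 27.8% of all genes were called. EYA1 is among the 8 but had no count in A549, so it could not be called.

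In B2B under SR11302, SOX9 was the called factor with substantial counts. NKX2-1 stood at 4.89 and 3.61 CPM in B2B_SR11302, against 2.44 and 2.85 CPM in B2B_NT, above both untreated libraries. Its log2 fold change of 0.69 ± 0.29 did not pass (edgeR, adjusted p = 0.0852), and passed when only these 4 libraries were fitted (0.67, adjusted p = 0.0338). EYA1 stood at 13.2 and 12.4 CPM in B2B_SR11302, against 15.4 and 13.9 CPM in B2B_NT (-0.19 ± 0.16), and did not pass either. FOXA1 stood at 32.0 and 27.4 CPM in B2B_SR11302, against 24.4 and 24.4 CPM in B2B_NT (0.28 ± 0.18), and GATA6 at 6.54 and 7.78 CPM, against 6.80 and 6.84 CPM (0.06 ± 0.21). CEBPA stayed under 1 CPM, at 0.781 and 0.338 CPM in B2B_SR11302, against 0.192 and 0.570 CPM in B2B_NT. FOXA2 and HNF4A were also called lower, but on the 13 and 16 counts of B2B_NT replicate 2 alone, and without that library neither has a count in B2B_SR11302 or B2B_NT. Called factors thus numbered 3 lower and none higher of 8, and 1 without B2B_NT replicate 2, where 22.5% of all genes were called.

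**Figure D2:**
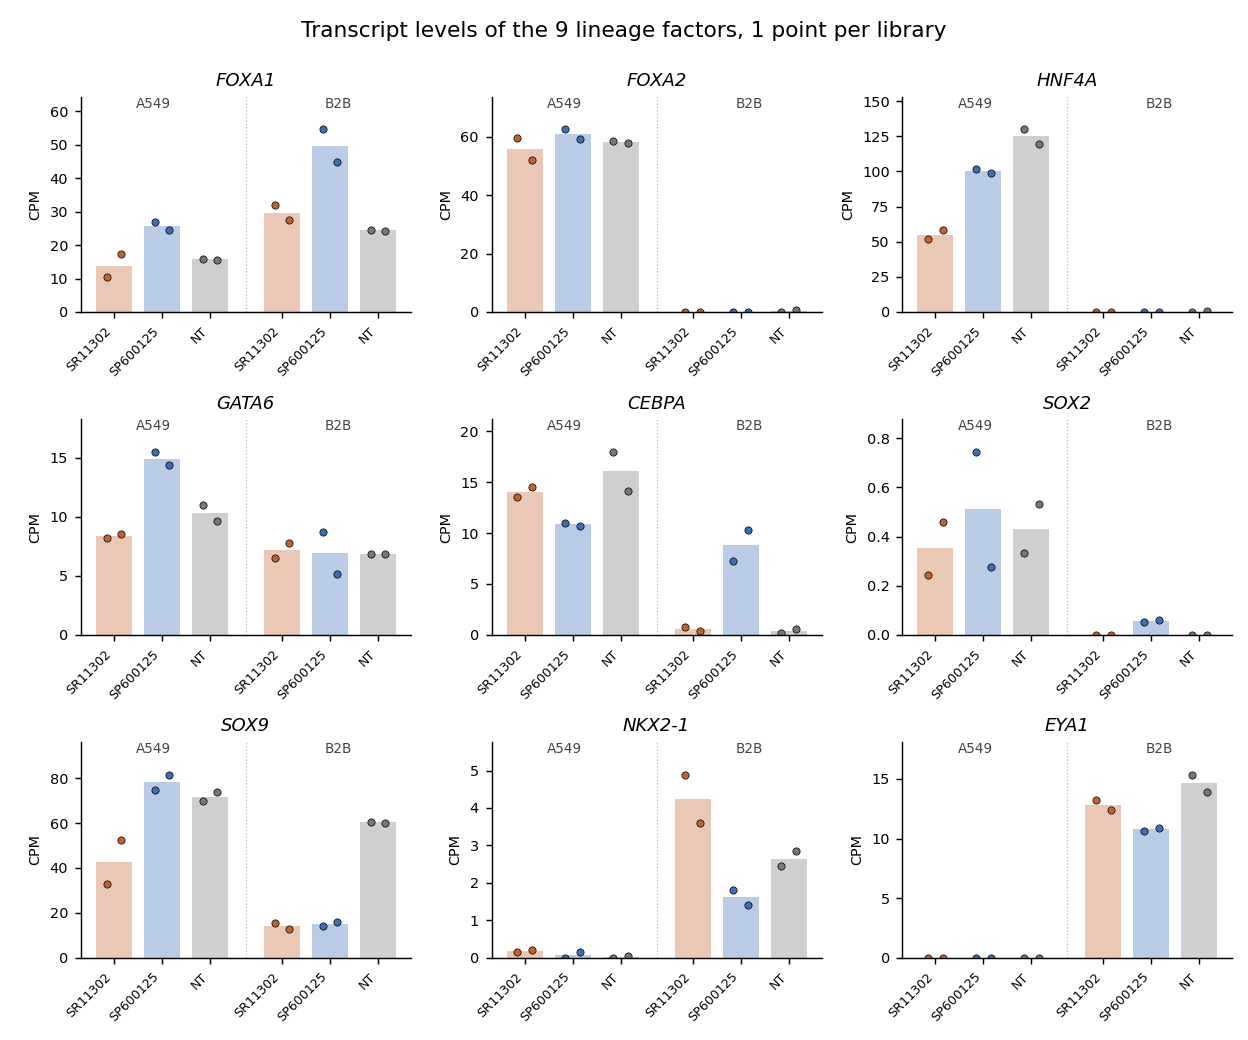
CPM of each lineage factor (1 panel each, linear axes from 0, scales differ) in the 6 groups, A549 on the left of each panel and B2B on the right. Points are single libraries and bars are means of 2. SOX9 is low in B2B under both inhibitors (12.9 to 15.9 CPM, against 60.2 and 60.4 CPM in B2B_NT), and CEBPA is high in B2B only in the SP600125 libraries (7.23 and 10.4 CPM).

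CEBPA rose in B2B under SP600125, the largest inhibitor effect on a factor beside the folds of FOXA2 and HNF4A in B2B that rest on single libraries. In A549, CEBPA stood at 11.0 and 10.7 CPM in A549_SP600125, against 18.0 and 14.2 CPM in A549_NT, and was called lower at -0.57 ± 0.23 (edgeR, adjusted p = 0.0485). The A549 call is not firm: with an offset for the GC content of genes the value was 0.54 with no call (adjusted p = 0.0604), and it was also lost without A549_NT replicate 1 (-0.38) and without either A549_SP600125 library. CEBPA has the highest GC content of the 9, at 65.9% of its exon bases. In B2B, CEBPA stood at 7.23 and 10.4 CPM in B2B_SP600125 (139 and 170 counts), against 0.192 and 0.570 CPM in B2B_NT (4 and 14 counts). The treated libraries lay far above the untreated ones, and 1 of them nearly reached the level of A549_SP600125. The log2 fold change was 4.45 ± 0.36 (edgeR, adjusted p = 4.65e-07), and 3.92 to 5.47 when single libraries were left out. The difference between the lines was -5.02 ± 0.44 (edgeR interaction, adjusted p = 4.71e-06), and -4.51 with the GC offset.

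CEBPA-AS1, a divergent neighbour of CEBPA, moved in the same direction in B2B, with 11 and 16 counts in B2B_SP600125 against 6 and 0 in B2B_NT. Its log2 fold change was 2.46 ± 0.71 (edgeR, adjusted p = 0.00959). Of 2 transcripts annotated on the opposite strand, 1 covers 25.3% of the exon bases of CEBPA and the other 18.5%. The strand setting of the counting is not given in the sources used here. Of the C/EBP relatives, CEBPG rose in B2B under SP600125 by 1.27 ± 0.14 and CEBPD, a stress-induced member, by 1.14 ± 0.16, both far less than CEBPA.

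SOX9 fell in B2B under SP600125 by about as much as under SR11302. In A549 it did not pass the test, at 74.7 and 81.7 CPM in A549_SP600125, against 69.8 and 73.9 CPM in A549_NT (0.12 ± 0.17). In B2B it stood at 14.2 and 15.9 CPM in B2B_SP600125, against 60.4 and 60.2 CPM in B2B_NT (-2.00 ± 0.18, edgeR, adjusted p = 1.45e-06). The lines differed by 2.12 ± 0.25 in this response (edgeR interaction, adjusted p = 6.39e-05), and by 2.06 to 2.20 when single libraries were left out. Both inhibitors were set against the same untreated libraries.

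FOXA1 rose in both lines under SP600125. It stood at 26.8 and 24.5 CPM in A549_SP600125, against 15.8 and 15.7 CPM in A549_NT (0.71 ± 0.19, edgeR, adjusted p = 0.00637). In B2B it stood at 54.8 and 44.8 CPM in B2B_SP600125, against 24.4 and 24.4 CPM in B2B_NT (1.03 ± 0.18, adjusted p = 3.53e-04, edgeR). The treated libraries lay above the untreated ones in both lines, the call held under each alternative run, and the difference between the lines did not pass (-0.32 ± 0.27, 95% interval -0.89 to 0.25). TTC6, which overlaps 0.362% of FOXA1's exon bases on the other strand, was not called under SP600125 in either line.

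GATA6 rose slightly in A549 under SP600125, at 15.5 and 14.3 CPM in A549_SP600125, against 10.9 and 9.66 CPM in A549_NT (0.53 ± 0.20, edgeR, adjusted p = 0.0340). The call sits at the fold minimum and was lost whenever 1 of these 4 libraries was left out (0.45 to 0.63). In B2B, GATA6 stood at 8.73 and 5.17 CPM in B2B_SP600125, on both sides of the 6.80 and 6.84 CPM of B2B_NT. GATA6-AS1, divergent from GATA6, had 22 and 18 counts in A549_SP600125 against 2 and 5 in A549_NT, and was called higher at 2.88 ± 0.65 (edgeR, adjusted p = 0.00177).

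FOXA2 and HNF4A did not pass in A549 under SP600125. FOXA2 stood at 62.7 and 59.3 CPM in A549_SP600125, against 58.7 and 58.0 CPM in A549_NT (0.06 ± 0.22), though with the GC offset it was called higher at 0.61 (adjusted p = 0.00597, edgeR). HNF4A stood at 101 and 98.8 CPM in A549_SP600125, below both A549_NT libraries at 130 and 120 CPM (-0.32 ± 0.24). LINC00261, the long noncoding RNA beside FOXA2, rose in A549 where FOXA2 did not pass, to 13.2 and 13.7 CPM in A549_SP600125 and 7.24 and 11.4 CPM in A549_SR11302, against 3.22 and 4.25 CPM in A549_NT. It was called at 1.84 ± 0.27 under SP600125 and 1.32 ± 0.27 under SR11302 (edgeR, adjusted p = 9.31e-05 and 0.00242). EYA1 stood at 10.7 and 10.9 CPM in B2B_SP600125, against 15.4 and 13.9 CPM in B2B_NT. Its -0.44 ± 0.16 passed the adjusted p (0.0393, edgeR) but lay under the fold minimum, and came to -0.59 with the GC offset. NKX2-1 stood at 1.82 and 1.40 CPM in B2B_SP600125, below both B2B_NT libraries at 2.44 and 2.85 CPM. It did not pass (-0.71 ± 0.32, adjusted p = 0.0802, edgeR), and passed when only these 4 libraries were fitted (-0.75, adjusted p = 0.0371, edgeR).

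Under SP600125, 2 of 8 factors were called higher and 1 lower in A549, where 48.8% of all genes were called. In B2B 2 were higher and 2 lower, where 43.8% of all genes were called, and of the lower ones FOXA2 again rested on B2B_NT replicate 2. In the interactions, SOX9 alone was called for SR11302 (15.8% of all genes), and SOX9 and CEBPA for SP600125 (25.2%). EYA1 has no value there or in any comparison within A549, since A549 had no count.

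**Figure D3:**
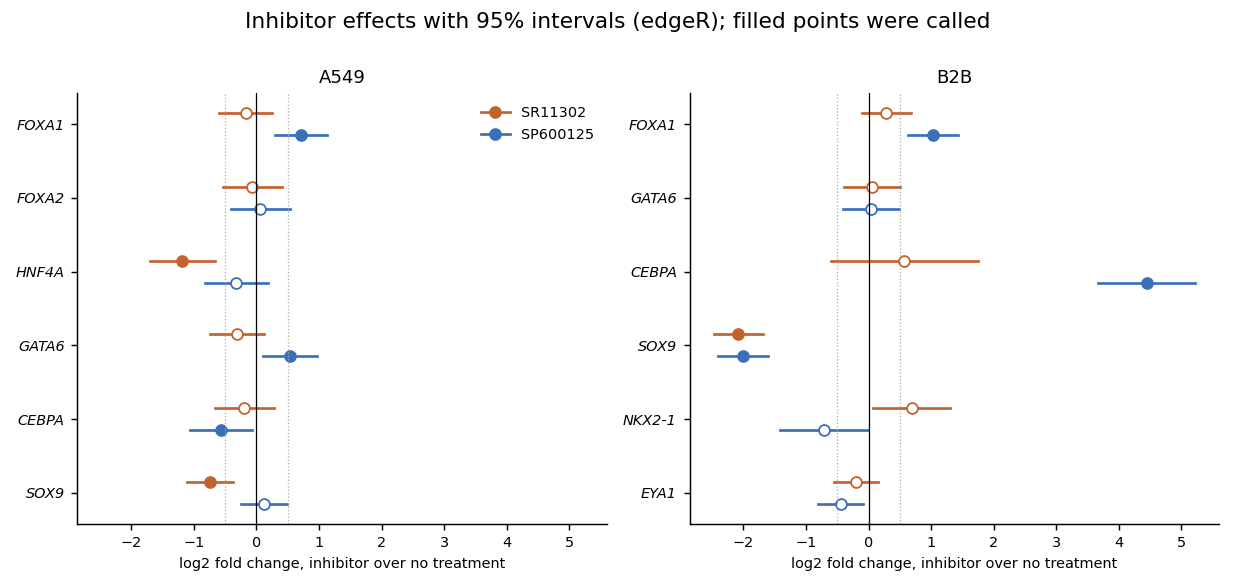
Log2 fold changes over untreated cells (x axis) in A549 (left panel) and B2B (right panel) for 6 factors with counts in every library of the line, with 95% intervals from edgeR. Filled points were called and dotted lines mark the fold minimum of 0.5. SOX9 lies near -2 in B2B under both inhibitors, and CEBPA at 4.45 in B2B under SP600125.

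The inhibitors were given at different doses, so a comparison of one with the other is of these treatments and not of the compounds. In A549, SP600125 over SR11302 gave 4 factors called higher and none lower of 8 (37.1% of all genes called). They were FOXA1 (0.88 ± 0.19), SOX9 (0.87 ± 0.17), HNF4A (0.86 ± 0.24) and GATA6 (0.84 ± 0.20), and the call of HNF4A was lost without either A549_SP600125 library and with DESeq2 over all 12 libraries (0.85, adjusted p = 0.694). In B2B, CEBPA (3.88 ± 0.34) and FOXA1 (0.75 ± 0.18, lost without B2B_SR11302 replicate 2 or B2B_SP600125 replicate 1) were higher and NKX2-1 was lower (-1.40 ± 0.31, edgeR, adjusted p = 0.00274), where 33.7% of all genes were called. The NKX2-1 libraries of B2B_SP600125 (1.82 and 1.40 CPM) lay below those of B2B_SR11302 (4.89 and 3.61 CPM). SOX9 in B2B did not pass, with a 95% interval of -0.33 to 0.49 on the log2 scale.

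Genes of liver and gut, the tissues of HNF4A, were mostly higher in A549, and most of those tested were called lower there under SR11302. Of 23 listed, 16 were tested, and 13 were called higher in A549_NT than in B2B_NT and none lower (56.9% of all genes called), with a median log2 change of 4.60 beside 0.05 over all genes. Under SR11302 in A549, 10 fell and none rose (27.8% of all genes called), with a median of -1.01 beside 0.02. The 7 general epithelial markers had a median of -0.95 in the same comparison and summed to 8693 to 11250 CPM in A549_SR11302, against 14120 to 16260 CPM in A549_NT. A difference between the lists was not tested. VIL1, the actin bundler of intestinal microvilli, stood at 6.22 and 6.32 CPM in A549_SR11302, against 70.4 and 70.6 CPM in A549_NT (-3.49 ± 0.27). TM4SF4, a tetraspanin-like protein of liver and gut, stood at 29.7 and 35.4 CPM in A549_SR11302, against 180 and 183 CPM in A549_NT (-2.48 ± 0.27). The falls numbered 4 without A549_NT replicate 1. Under SP600125 in A549, 6 fell, led by VIL1 at 2.38 and 3.52 CPM in A549_SP600125 (-4.57 ± 0.31). Another 3 rose (48.8% of all genes called), and the median was -0.10 beside 0.02. In B2B, 3 fell and 1 rose under SR11302 (22.5% of all genes called), and 4 fell and 3 rose under SP600125 (43.8%). Of the 16, 5 had no count in B2B_SR11302 or B2B_NT and at most 3 in the other. In the interactions, 0 of 16 were called for SR11302 (15.8% of all genes) and 1, lower, for SP600125 (25.2%).

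Among other endoderm, liver and gut factors, 11 of 13 tested were higher in A549_NT and 2 lower, where 56.9% of all genes were called. In A549 the list counted 1 gene higher and 1 lower under SR11302 (27.8% of all genes called), and 6 higher and 2 lower under SP600125 (48.8%). Among those higher under SP600125 was NR5A2, a nuclear receptor of liver and pancreas (1.33 ± 0.20).

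Other lung and airway factors were lower in 9 of 28 cases and higher in 2 in A549 under SR11302, where 27.8% of all genes were called. SPDEF, the factor of mucous cells, averaged 2.21 ± 0.308 CPM in A549_SR11302, against 16.5 ± 0.956 CPM in A549_NT (SD, n = 2 each), a log2 fold change of -2.89 ± 0.28. Scaled by library size only, 6 were lower and 4 higher, and without A549_SR11302 replicate 1, 7 and 5. Under SP600125 in A549, 4 rose and 8 fell (48.8% of all genes called), and in B2B the counts were 3 higher and 5 lower under SR11302 (22.5%) and 5 and 5 under SP600125 (43.8%). In these 3 comparisons the called share of the list lay near that of all genes. In B2B under SP600125, GRHL1, a grainyhead factor of epithelia, rose by 1.79 ± 0.22, and ID2, an inhibitor of helix-loop-helix factors, by 1.95 ± 0.15. In the same comparison HOPX (highest group mean 2.05 CPM) changed by -3.14 ± 0.63 and ETV4 (44.1 CPM) by -1.41 ± 0.25.

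Differentiated lung genes were mostly near the detection limit, with 9 of 19 tested. The surfactant genes SFTPB and SFTPC and the club cell gene SCGB1A1 had at most 14, 3 and 5 counts in any library. Of those tested, 3 were higher and 4 lower in A549_NT (56.9% of all genes called). SFTPD, surfactant protein D, rose in A549 to 3.43 and 4.27 CPM in A549_SP600125, against 0.500 and 0.372 CPM in A549_NT (3.13 ± 0.51). LAMP3, a protein of lamellar bodies, rose in both lines under SP600125 (2.42 ± 0.67 in A549 and 2.87 ± 0.36 in B2B). Their highest group means were 3.85 and 3.585 CPM. LPCAT1, with a highest group mean of 200 CPM, fell in A549 under SP600125 (-1.25 ± 0.12) and rose in B2B (0.60 ± 0.12). ABCA3 (90.4 CPM) fell in A549 under SR11302 (-0.55 ± 0.11) and rose in B2B (0.99 ± 0.11). In A549 the list counted 2 higher and 1 lower under SP600125 (48.8% of all genes called), and 0 and 2 under SR11302 (27.8%). None of the list fell in B2B under SP600125 and 1 fell there under SR11302, with 3 higher in each (43.8% and 22.5% of all genes called).

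**Figure D4:**
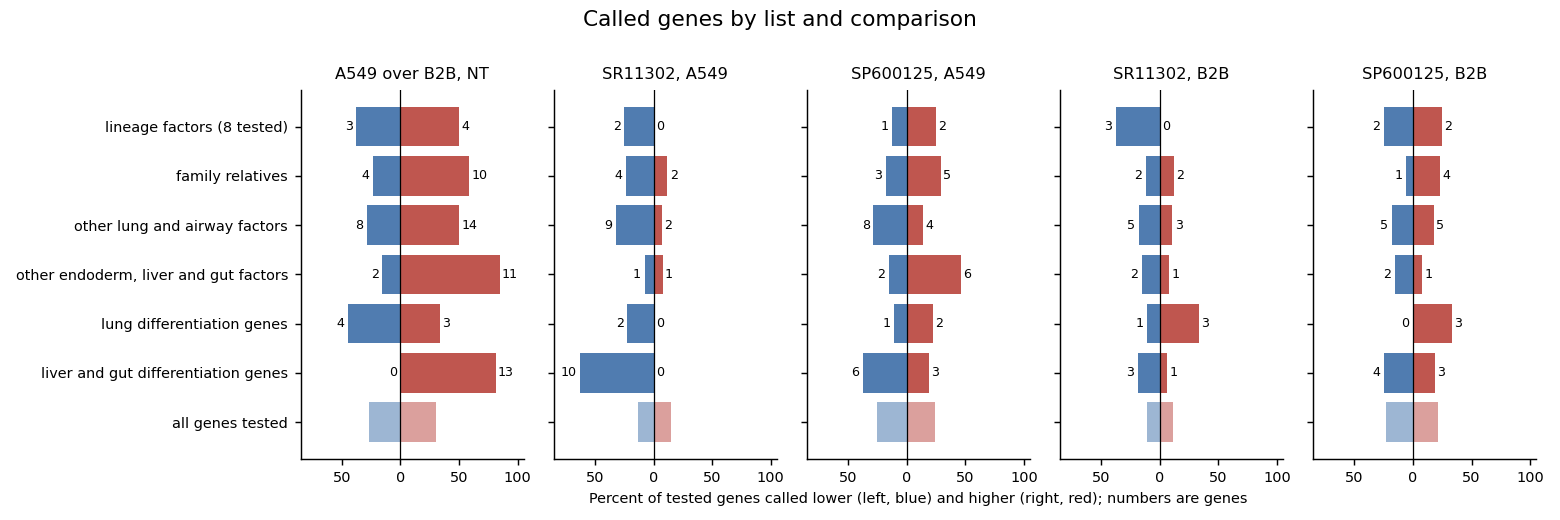
Share of tested genes called lower (left of 0) and higher (right of 0) in 5 comparisons, for the lineage factors, 5 related gene lists and all genes tested (pale bars), with the number of genes beside each bar. The liver and gut differentiation genes hold 13 higher and 0 lower genes in A549 over B2B without treatment, and 0 higher and 10 lower under SR11302 in A549.

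Of relatives of the 9 factors within their families, 10 of 17 tested were higher in A549_NT and 4 lower, where 56.9% of all genes were called. GATA4, a heart and gut relative of GATA6, stood at 6.45 and 6.32 CPM in A549_NT and had no count in B2B. Of the homeodomain partners of EYA1, SIX2 stood at 0.0556 and 0.478 CPM in A549_NT, against 28.5 and 32.5 CPM in B2B_NT, with 1 and 9 counts in A549_NT. GATA3 rose under SP600125 in both lines (1.08 ± 0.24 in A549 and 1.66 ± 0.41 in B2B), and CEBPB fell under SR11302 in both (-0.54 ± 0.11 and -0.80 ± 0.12).

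Genes whose levels followed each factor most closely over the 12 libraries were named by Pearson's r of log2(CPM + 0.5), as a description, since the libraries share lines and treatments. For CEBPA they were COBL (0.988), EPAS1 (0.983) and B4GALT5 (0.973), and for SOX9 TWF1 (0.977), TRAPPC2 (0.955) and DDX52 (0.954). FOXA1 was followed by ATG5 (0.977), ADD3 (0.973) and PPM1E (0.973), and GATA6 by MRPL13 (0.942), FOXCUT (0.938) and RAB37 (0.931). For factors nearly confined to 1 line, many genes share the line difference. FOXA2 (NR0B1 at 0.999 first) has 904 genes with r over 0.95, HNF4A (SLCO1B3 at 0.998 first) 845, EYA1 (DMRTA2 at 0.998 first) 692 and NKX2-1 (TCEAL7 at 0.991 first) 371, while FOXA1, CEBPA, SOX9 and GATA6 have 24, 21, 9 and 0.

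By position in hg38 (GENCODE v44), FOXA2 (chr20:22580998-22585455) and HNF4A (chr20:44355699-44432845) lie on one chromosome, as do NKX2-1 (chr14:36516392-36521149) and FOXA1 (chr14:37589552-37596059). The others are CEBPA (chr19:33299934-33302534), GATA6 (chr18:22169589-22202528), SOX2 (chr3:181711925-181714436), SOX9 (chr17:72121020-72126416) and EYA1 (chr8:71197433-71592025). All are protein-coding, and 97.5 to 100% of the 50-base windows in their exons occur once in the genome.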

How the data were processed

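Messenger RNA libraries of A549 and B2B cells were sequenced on Illumina instruments by the authors, with 2 libraries per group. The deposited values are whole-number counts per gene symbol, which the authors made by aligning reads to hg38 with STAR (version 2.7.10a) and counting with HTSeq (version 1.99.2), without normalization. HTSeq sets aside reads in no gene (14.6 to 25.9% of tallied reads here), ambiguous reads and reads with several alignments, and none of these tallies entered a library size or a test. For the annotation version, the strand setting and the instrument of each library, nothing is given in the sources used here.

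All 12 libraries were fitted in one model of 6 groups with edgeR (version 4.0.16, R version 4.3.3), with TMM, filterByExpr and the quasi-likelihood F test, over 16373 genes. Genes were called where the p adjusted by Benjamini-Hochberg lay under 0.05 and the log2 fold change was 0.5 or more in size, the minimum that the study states. SE are the fold change divided by the root of F. The p-values measure only the spread between these libraries, which may be technical, since nothing says that they came from separate cultures. That spread was estimated per gene over all 6 groups together. By a chi-square per gene against counting error, the A549_SR11302 libraries lay furthest apart (44.0, against 2.58 to 13.5 in other groups). The SE and p of comparisons with A549_SR11302 may therefore be too small. Gene counts of 13969766 to 24917854 per library set the precision. Bounds (3 counts over a group) cover only the counting error of the group without counts. The 95% intervals of fold changes come from the edgeR fit and include the spread between libraries. Of the symbols, 24542 were matched to GENCODE v44 for lengths and GC content.

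The 9 factors and the gene lists were chosen with earlier results of these data known. Named genes are all 9 factors, up to 4 called genes per list and comparison with the largest change (mean 1 CPM or more in one of the groups), and the 3 genes most correlated with each factor. HNF4A-AS1, SFTA3, SFTPB, SFTPC and SCGB1A1 fall outside that rule and were named after their values were seen. Values of some genes that the rule names are not reported here. Alternatives were DESeq2 (version 1.42.0) size factors and tests, library size only, no filter, a replicate block, a GC offset, fits of only the groups compared and leaving out each library. The fit of SR11302 in A549 was tried on simulated data with the same spread in every gene and group. That spread differs from these libraries, and changes in genes with few counts and the interactions were not tried.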

Additional observations from a re-analysis of the deposited data

Results flagged for a closer look

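SOX9 responded differently to both inhibitors in the lines, by the test of the difference itself. Under SR11302 the A549 effect less the B2B effect was 1.33 ± 0.25 on the log2 scale (edgeR interaction, adjusted p = 0.00259), with an effect of -0.75 in A549 and -2.08 in B2B. Leaving out single libraries gave 1.00 to 1.63. Under SP600125 the difference was 2.12 ± 0.25 (adjusted p = 6.39e-05, edgeR), with an effect of 0.12 in A549 and -2.00 in B2B. The SOX9 differences share the untreated libraries.

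CEBPA differed between the lines under SP600125 by -5.02 ± 0.44 (edgeR interaction, adjusted p = 4.71e-06), with an effect of -0.57 in A549 and 4.45 in B2B. It was higher in 2 of 2 treated B2B libraries than in either untreated one, and leaving out single libraries gave -6.03 to -4.49.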

How the results depend on the processing

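Alternatives were run for the log2 fold changes of the factors, which gave 802 values with the direction and call reported, 33 that lost a call, 27 that gained one and 29 that changed sign. Of the sign changes, those of CEBPA under SP600125 in A549 alone concern a called value (-0.57), which came to 0.54 with the GC offset and to 0.53 with the replicate block and GC offset together, without a call. The other sign changes concern values called in neither fit. With the GC offset, and then with the block and GC offset, FOXA2 came to 0.092 and 0.093 and CEBPA to 0.15 and 0.14 under SR11302 in A549, GATA6 to -0.058 and -0.061 under SR11302 in B2B, and SP600125 over SR11302 to 0.39 and 0.39 for CEBPA in A549 and 0.11 and 0.11 for GATA6 in B2B. Scaled by library size only, FOXA2 came to 0.054 under SR11302 in A549 and GATA6 to 0.037 for SP600125 over SR11302 in B2B, and with DESeq2 on only the groups compared GATA6 came to -0.0076 under SP600125 in B2B. When a library was left out, values under SR11302 in A549 ran from -0.56 to 0.14 for FOXA1 and from -0.17 to 0.059 for FOXA2, and under SR11302 in B2B from -0.056 to 0.19 for GATA6 and from -0.22 to 1.59 for CEBPA. Under SP600125 they ran from -2.40 to 3.60 for NKX2-1 in A549, and in B2B from -0.43 to 0.36 for GATA6 and from -5.80 to 4.47 for HNF4A. In the interactions they ran from -1.78 to 0.027 for CEBPA with SR11302, and with SP600125 from -1.70 to 4.31 for NKX2-1 and from -4.79 to 5.48 for HNF4A. For SP600125 over SR11302 they ran from -0.0003 to 0.23 for FOXA2 in A549, and in B2B from -0.48 to 0.30 for GATA6 and from -0.046 to 0.22 for SOX9. The number of factors called under SR11302 in A549 (2) was 1 with DESeq2 and 1 to 3 when a library was left out. Under SR11302 in B2B (3) it was 1 with the replicate block, 1 with DESeq2 on only the groups compared, an alternative chosen after seeing the data, and 1 to 3 when a library was left out. Under SP600125 in A549 (3) it was 1 to 2 when a library was left out. For the SR11302 interaction (1) it was 3 with no filter on low counts, 2 with the GC offset, 2 with the replicate block and GC offset, and 1 to 3 when a library was left out. For the SP600125 interaction (2) it was 4 with the GC offset and 4 with the replicate block and GC offset. The factors concerned were FOXA2, HNF4A, GATA6, CEBPA, FOXA1 and SOX9, and the cause was not tested. Where B2B_NT replicate 2 is left out, FOXA2 and HNF4A have no value under SR11302 in B2B.

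Differences between replicate 2 and replicate 1 correlated at -0.69 to 0.60 between groups. The highest value was that of A549_NT with A549_SR11302, and the lowest that of A549_SR11302 with B2B_SR11302. These values do not settle whether libraries of the same number were paired, in these groups or in others. With the replicate block, 3 calls of single factors were lost and no direction changed. Scaling by library size only moved the share of called genes that were higher to 66.3%, beside 53.2%, for SR11302 in A549, to 61.1%, beside 50.7%, for SR11302 in B2B and to 59.1%, beside 48.5%, for SP600125 in B2B. It put the median of all genes at 0.14, 0.09 and 0.15 on the log2 scale in these comparisons, and at 0.10 for SP600125 in A549. With 2 libraries per group, and with few counts for SOX2, and for NKX2-1 in A549, small changes were not detectable at this depth.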
